A study of Mus musculus with 3 samples.

Results

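Blood NK cells of mice taken 6 h after intravenous injection of tumor cells were compared with blood NK cells of naive mice, over all genes. Sorted live NK1.1+NKp46+ cells of lungs and blood had been sequenced together in 3 droplet libraries, 1 from naive mice, 1 at 6 h and 1 at 14 days. Blood cells were those in which the blood hashtag, B0306, made up at least 90% of the counts of the 2 hashtags, among barcodes with between 800 and 5000 genes detected and no more than 6% of counts from mitochondrial genes. These were 4367 cells of the naive and 2746 cells of the 6 h library, 7113 of the 21754 barcodes that passed the filter over all 3 libraries.

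All mice were wild-type females of 9 weeks on a C57BL/6 background. The 6 h group had received 100000 PyMT cells, a mouse mammary tumor line, 6 h before they were killed, and naive mice had received none. Markers of T cells, B cells, granulocytes and red cells had been used to exclude lineages before the sort, and the blood was taken from the heart before perfusion. Each group is 1 library, made from 5 mice whose cells carry no label of their own. Time after injection and library therefore cannot be told apart, and no test between groups was possible. A gene is called past the fold where its CPM, the UMIs of the gene per 1000000 UMIs of the summed cells, differed at least 1.5-fold, and every interval given is a 95% interval for counting error only.

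NK cells are innate lymphocytes that kill stressed, infected or transformed cells with perforin and granzymes and that secrete interferon-gamma and chemokines. In the mouse they mature from CD27-positive to CD11b-positive cells (the products of Cd27 and Itgam), and mature cells circulate in blood. Cytokines such as IL-2, IL-15, IL-12, IL-18 and interferons act on them through STAT and NF-kB transcription factors, which switch on feedback inhibitors, survival kinases and genes of cell growth within hours.

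The blood cells held 29979116 UMIs in the naive and 22077755 UMIs in the 6 h library, with medians of 6351 and 7465 UMIs and 2615 and 2816 genes per cell. The genes of the sort markers NKp46 and NK1.1 were at like levels in both groups. Ncr1, which encodes NKp46, had 1533 CPM in naive and 1526 CPM in 6 h cells, and Klrb1c, which encodes NK1.1, had 1292 and 1278 CPM. The summed CPM of 11 T cell markers, mostly Trbc1 and Trbc2, was 479 in naive and 501 in 6 h cells, of 6 ILC1 markers 42.4 and 52.1, of 5 erythroid markers 2.57 and 1.90, and of 6 epithelial and mammary tumor cell markers 0.667 and 0.544. Trac, the T cell receptor alpha constant gene, had 11.6 and 14.0 CPM. The summed CPM of 6 neutrophil markers went from 26.6 to 2.72 and that of 7 monocyte and macrophage markers from 82.2 to 119. Both differences rested on few cells. The naive sum of the monocyte and macrophage markers did not rest on Lyz2, which had a UMI in 2 naive cells. Some of these markers were at 0: Cd4, Cd8a and Cd8b1 at 6 h, and Krt8 and Krt19 in both groups. In contrast, 5 of the 11 T cell markers reached 10 CPM, with log2 ratios from 0.055 to 0.28. In the 6 h library 99.5% of the UMIs of Lyz2, which encodes lysozyme, came from 2 cells without a UMI of Ncr1. In the naive library 99.0% of the UMIs of S100a9, a neutrophil calcium-binding protein, came from 1 such cell. The naive and 6 h blood cells shared 4 cell barcodes.

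Most genes were close to equal in the 2 groups. Of 8114 genes that reached 10 CPM in one group or the other, 23 were higher at 6 h by 1.5-fold or more (0.283%) and 19 were lower (0.234%). The median log2 ratio was -0.056, and 86.1% of genes lay within 0.25 of 0. Counting intervals lay above 0 for 16.6% of the 8114 genes and below 0 for 34.1%, and the interval counts of the gene lists are to be read against these shares. Intervals are narrower for genes with more counts, so a list of abundant genes can exceed these shares at small ratios. At least 2-fold, 6 genes were higher and 1 was lower. In lung cells of the same libraries, 38 of 8007 genes were higher (0.475%) and 7 were lower (0.0874%). The split between the directions depended on the scaling. Of the genes past the fold 54.8% were higher, against 84.8% (39 higher and 7 lower) when the libraries were scaled by the median of the gene ratios, and 65.8% (25 and 13) when mitochondrial, ribosomal protein and Malat1 counts were left out of the totals. Scaling by the median of the gene ratios adds the same amount to every log2 ratio and puts the median of all genes at 0.018. List medians given with that scaling are to be read against 0.018. A list's distance from the median of all genes is unchanged by it. Lyz2 and S100a9 are among the 42 genes, and their ratios belong to the single cells named above.

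**Figure D1:**
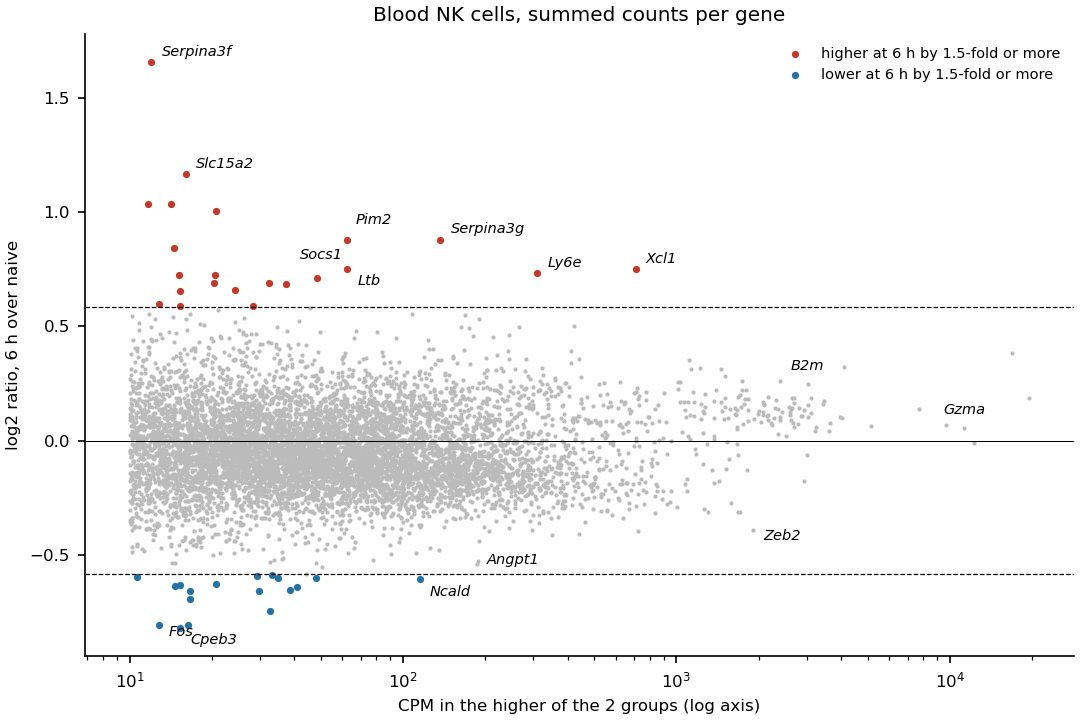
Log2 ratio of 6 h over naive blood NK cells against the CPM in the higher group (log axis) for the 8114 genes that reached 10 CPM, with dashed lines at 1.5-fold. Points are genes, and Lyz2 and S100a9 are left out. Above 50 CPM, 5 genes lie above the upper line and 1 lies below the lower line.

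At 50 CPM or more, in 3910 genes, the 5 genes past the fold were Serpina3g, Pim2, Ltb, Xcl1 and Ly6e, and the only lower one was Ncald. They cover a protease inhibitor, a survival kinase, a secreted chemokine, a tumor necrosis factor family ligand and an interferon-induced surface protein.

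Serpina3g (ENSMUSG00000041481, chromosome 12 from 104236245 to 104241939 of GRCm38) encodes an intracellular serpin that inhibits cathepsin proteases and is induced in activated lymphocytes. It had 74.3 CPM (71.3 to 77.5) in naive and 137 CPM (132 to 142) in 6 h blood cells, 1.84-fold higher (1.74 to 1.95). Its neighbour Serpina3f (chromosome 12 from 104214544 to 104221129) had 3.80 CPM (3.14 to 4.57) in naive cells and was 3.16-fold higher at 6 h (2.53 to 3.97). The 2 genes are near-identical copies, so reads can be split between them and the single values are uncertain. Both were also higher in the lung cells, with log2 ratios of 1.20 for Serpina3g and 2.09 for Serpina3f. The other 4 serpins at the floor, Serpinb9b, Serpinb9, Serpinb6b and Serpinb6a, lay between -0.24 and 0.08 on the log2 scale.

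Pim2 (ENSMUSG00000031155, chromosome X from 7878262 to 7883432) encodes a serine/threonine kinase that promotes survival and protein synthesis downstream of STAT5. Its level was 34.1 CPM in naive and 62.6 CPM in 6 h cells, 1.84-fold higher (1.69 to 1.99). At 14 days it was higher still, with a log2 ratio of 1.03 over the same naive cells against 0.88 at 6 h. Among the 9 genes of the Pim and SOCS list at the floor, 3 were past the fold, all higher, beside 0.283% of all genes, and the list median was 0.18. As for all lists here, its members were chosen with earlier results of these data known, and a gene can be in several lists. Socs1, an inhibitor of JAK kinases, had 29.6 and 48.5 CPM (log2 0.71, 0.58 to 0.84), and Cish, an inhibitor of IL-2 and IL-15 signalling, had 10.2 and 15.4 CPM (log2 0.59, 0.36 to 0.82). The kinases Pim3 and Pim1 had log2 ratios of 0.26 and 0.15, the growth factor target Myc 0.14, and the survival gene Mcl1 -0.050. The receptor chains of this pathway were past the fold in no case. Il2rg, the common gamma chain, had a log2 ratio of 0.25, Il2rb 0.16, and the kinase Jak1 -0.22.

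Xcl1 (ENSMUSG00000026573, chromosome 1 from 164931644 to 164935527) encodes lymphotactin, a chemokine that draws cross-presenting dendritic cells. Its level was 422 CPM (414 to 429) in naive and 709 CPM (698 to 721) in 6 h cells, 1.68-fold higher (1.64 to 1.72). Ltb (ENSMUSG00000024399, chromosome 17 from 35194439 to 35196320), which encodes lymphotoxin-beta, had 37.0 and 62.3 CPM, 1.69-fold higher (1.56 to 1.83). Of 9 chemokine and cytokine genes at the floor these and Ccl9 (9.14 and 15.1 CPM) were past the fold, beside 0.283% of all genes. For Ccl9, 36.1% of the naive and 45.2% of the 6 h UMIs came from 10 cells. The most abundant of them, Ccl5, had a log2 ratio of -0.012, Ccl4 0.17, Ccl3 -0.092 and Ifng, the interferon-gamma gene, 0.062 (-0.026 to 0.15).

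Ly6e (ENSMUSG00000022587, chromosome 15 from 74955051 to 74959905) encodes a GPI-anchored surface protein induced by interferons. It had 186 CPM (181 to 191) in naive and 309.8 CPM (302.5 to 317.2) in 6 h cells, 1.66-fold higher (1.61 to 1.72). Thy1 and Ly6c2, the other members of its list at the floor, had log2 ratios of 0.15 and 0.10. At 14 days Ly6e, Ltb and Pim2 had log2 ratios of 0.62, 0.48 and 1.03 over naive blood, whereas Serpina3g had 0.20 and Xcl1 -0.27.

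Below these 5 genes, 9 further genes among the 15 largest ratios at 50 CPM or more lay between 0.46 and 0.55 on the log2 scale, under the fold. Tnfrsf9, which encodes the costimulatory receptor 4-1BB, had 131 CPM in naive and 189 CPM in 6 h cells (log2 0.53, 0.47 to 0.59), and Nfkbia, the inhibitor of NF-kB, had 124 and 175.0 CPM (log2 0.49, 0.43 to 0.56). Mif, a cytokine and tautomerase, had 115 and 169 CPM. The nucleoside diphosphate kinases Nme1 and Nme2 had log2 ratios of 0.50 each, and as close paralogs they can share reads. Mrpl23, a mitochondrial ribosomal protein, had 0.55, the prolyl isomerase Fkbp2 0.48, the NADPH oxidase subunit Ncf4 0.48 and the proteasome activator subunit Psme2 0.46. For these 9 genes the lung ratios ran from 0.45 to 0.60. Lung and blood cells of a time point come from 1 library, and the 14 day ratios use the same naive blood cells as the 6 h ratios, so none of these values is independent of the others.

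**Figure D2:**
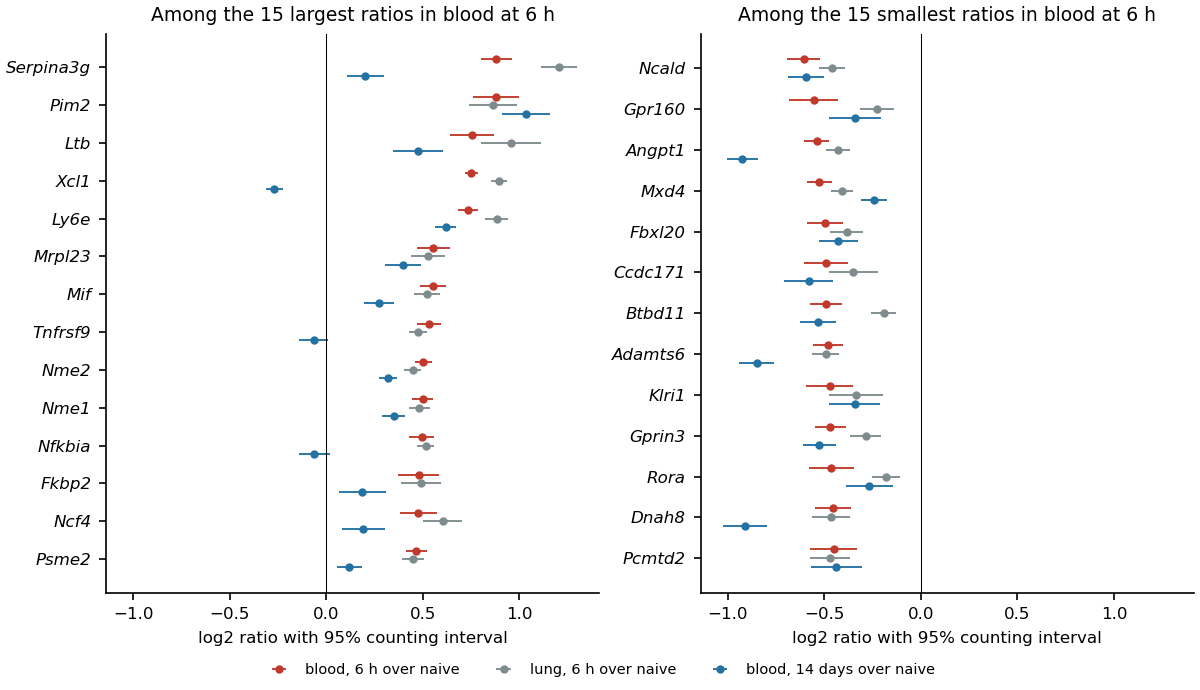
Log2 ratios with 95% counting intervals for genes among the 15 largest (left) and 15 smallest (right) ratios at 50 CPM or more, in blood at 6 h (red), lung at 6 h (grey) and blood at 14 days (blue), each over naive cells of the same tissue. All lung ratios have the direction of the blood ratio at 6 h, while Xcl1, Tnfrsf9 and Nfkbia lie below 0 at 14 days.

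Sequences 250 bases upstream of the annotated start are shown for Serpina3g, Ltb, Tnfrsf9 and Nfkbia, since these are 4 of the 5 leading genes in whose window an NF-kB motif was found, Nme2 being the other, and 3 of the 4 also hold a STAT site. They are RefSeq promoter windows on GRCm38.p6, written 5′ to 3′ on the gene's strand. Motif distances are from the RefSeq start, which for Serpina3g and Ltb differs from the gene start given above. Capitals mark NF-kB motifs and STAT sites (TTCNNNGAA), which were searched on both strands.
Serpina3g, chr12:104235897-104236146, plus strand: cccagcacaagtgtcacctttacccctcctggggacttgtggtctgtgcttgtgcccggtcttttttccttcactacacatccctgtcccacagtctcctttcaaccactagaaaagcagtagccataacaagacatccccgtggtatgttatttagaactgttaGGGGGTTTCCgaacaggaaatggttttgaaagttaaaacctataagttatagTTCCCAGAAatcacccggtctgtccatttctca
Ltb, chr17:35194257-35194506, plus strand: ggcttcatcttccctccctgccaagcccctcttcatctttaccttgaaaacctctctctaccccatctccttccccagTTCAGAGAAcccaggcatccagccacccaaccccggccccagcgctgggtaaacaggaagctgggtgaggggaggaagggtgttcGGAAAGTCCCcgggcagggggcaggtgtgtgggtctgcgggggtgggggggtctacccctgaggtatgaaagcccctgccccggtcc
Tnfrsf9, chr4:150927749-150927998, plus strand: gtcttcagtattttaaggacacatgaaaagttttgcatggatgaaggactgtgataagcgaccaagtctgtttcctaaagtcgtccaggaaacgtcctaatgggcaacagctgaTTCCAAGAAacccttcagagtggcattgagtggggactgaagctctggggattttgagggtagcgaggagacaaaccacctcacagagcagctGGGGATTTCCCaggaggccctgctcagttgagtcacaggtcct
Nfkbia, chr12:55492648-55492897, minus strand: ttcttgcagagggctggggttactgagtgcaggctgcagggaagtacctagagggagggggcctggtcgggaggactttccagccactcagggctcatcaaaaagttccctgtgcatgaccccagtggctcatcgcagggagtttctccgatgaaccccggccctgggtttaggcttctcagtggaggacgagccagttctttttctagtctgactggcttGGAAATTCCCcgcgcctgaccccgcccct

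The table held 12 of the 15 genes with the largest and 9 of the 15 genes with the smallest ratios. An NF-kB motif was in a window (250 bases before to 50 after the start) of 5 of the 12 and of 0 of the 9 genes, and in 9.55% of all 27025 genes of the table. A STAT site was in 3 of the 12 and 0 of the 9 genes, against 9.55% of all genes. The cyclic AMP response element TGACGTCA was in 1 of the 12 (Mif), against 2.03% of all genes, and the interferon-stimulated response element in none of either set, against 3.99%. The E-box CACGTG was in 1 of the 12 (Nme1) and 2 of the 9 (Mxd4 and Gprin3), against 8.09%. In Serpina3g the NF-kB motif lies 85 to 76 bases and the STAT site 33 to 25 bases before the start, and in Ltb these lie 87 to 78 and 172 to 164 bases before it. A match describes the letters of a window and was not tested as a binding site.

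Among the smallest ratios only Ncald was past the fold. Ncald (ENSMUSG00000051359, chromosome 15 from 37366175 to 37792570), a neuronal calcium sensor, had 115.0 CPM in naive and 75.5 CPM in 6 h cells, 1.52-fold lower (1.44 to 1.62). It fell short of 1.5-fold under 7 of the alternatives, with log2 ratios from -0.58 to -0.45. Angpt1 (ENSMUSG00000022309, chromosome 15 from 42424723 to 42676977), which encodes the vessel-stabilising growth factor angiopoietin-1, had 186 and 128 CPM, 1.45-fold lower (1.39 to 1.52). Mxd4, a MAX partner that opposes MYC, had 187 and 130.0 CPM (log2 -0.53, -0.59 to -0.46). Rora, a nuclear receptor of the clock and of innate lymphoid cells, had 56.3 and 40.9 CPM, and Klri1, an NK lectin receptor, 51.8 and 37.3 CPM. Gpr160, Fbxl20, Ccdc171, Btbd11, Adamts6, Gprin3, Dnah8 and Pcmtd2 were also among the 15, with log2 ratios between -0.55 and -0.45. All 15 had negative ratios in lung too, from -0.49 to -0.18.

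Ratios went with gene span, the distance from the start to the end of a gene. With the genes in 5 equal groups by span, the median log2 ratio was 0.079 in the shortest group (up to 9.00 kb). It was -0.0071, -0.056, -0.10 and -0.15 in the groups that followed, the last holding genes over 71.7 kb. In lung the medians ran from 0.080 to -0.16, and in blood at 14 days from 0.10 to -0.38. Of the 23 higher genes 16 were in the shortest group, and of the 19 lower genes 11 were in the longest. What part this trend has in any single ratio was not tested. When the median of genes of like span, in 10 equal groups, was subtracted (an alternative chosen after the data were seen), Serpina3g was at 0.82, Pim2 at 0.82, Ltb at 0.66, Xcl1 at 0.65 and Ly6e at 0.64, all still past the fold. Ncald was then at -0.45, short of it, Angpt1 at -0.38 and Mxd4 at -0.50. With that subtraction 24 genes were higher and 10 lower, and 19 and 7 of these were among the original 23 and 19.

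**Figure D3:**
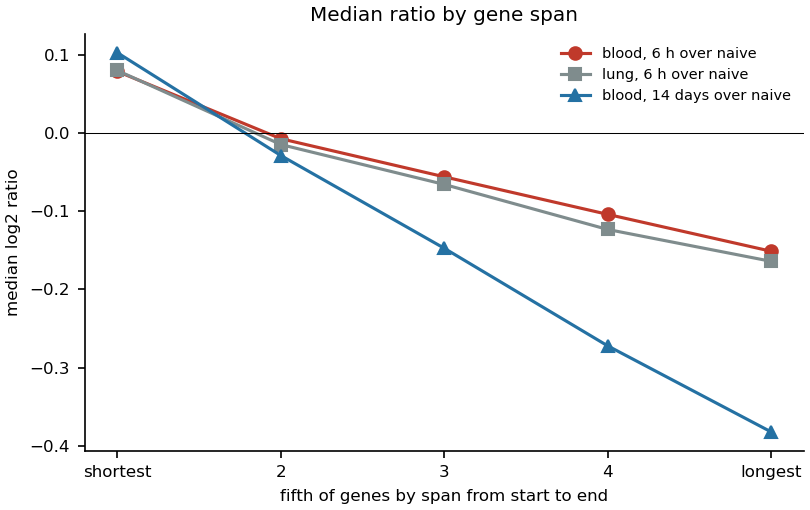
Median log2 ratio of genes in 5 equal groups by span, for blood at 6 h, lung at 6 h and blood at 14 days, each over naive cells. The median is lower in each group than in the one before, from the shortest to the longest group in all 3 comparisons, from 0.079 to -0.15 in blood at 6 h.

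Few members of the gene lists were past the fold. Genes of ribosome biogenesis and the nucleolus, which make rRNA and assemble ribosomal subunits, had the highest median among the lists other than those of contaminating cells. Of 34 listed genes 33 were at the floor, with a median log2 ratio of 0.30 beside -0.056 over all genes, and all 33 were above 0. Only 3 were past the fold, all higher, beside 0.283% of all genes. They were the tRNA methyltransferase Mettl1 (12.6 and 20.4 CPM), spermidine synthase Srm (15.4 and 24.4 CPM) and the DNA repair nuclease Apex1 (8.51 and 12.9 CPM). As these 3 show, the list is not limited to genes that make rRNA or assemble subunits. The lung median of the same 33 genes was 0.30, and with the median of genes of like span subtracted the blood median was 0.29. Srm and Apex1 then fell short of the fold, as did Cish and Nfkb2. Over all alternatives Apex1 fell short under 7 (0.35 to 0.58), Cish under 3 and Srm under 2.

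MHC class I and peptide loading genes, which present peptides to T cells and supply ligands of inhibitory NK receptors, had a median of 0.22 over 20 genes. None of the 20 was past the fold. Intervals lay above 0 for 18 genes and below 0 for 1, the class Ib gene H2-Q6. The immunoproteasome and loading genes (Psme2, Tapbp, Psme1, Psmb10 and Psmb8, named after their values were seen) had log2 ratios of 0.46, 0.37, 0.36, 0.31 and 0.28. B2m, the light chain of all class I molecules, went from 1995 to 2393 CPM (log2 0.26), H2-K1 from 2330 to 2648 CPM (0.18) and H2-D1 from 2121 to 2271 CPM (0.099). The H2 genes are close paralogs and can share reads.

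The 78 nuclear-encoded genes of oxidative phosphorylation had a median of 0.19, with 65 intervals above 0, 1 below 0 and no gene past the fold. Atp5e, a subunit of ATP synthase, had 614 and 713 CPM, Cox8a 759 and 836 CPM and Cox4i1 622 and 653 CPM. The 83 cytosolic ribosomal protein genes had a median of 0.14, also with none past the fold, and 82 of their intervals lay above 0. Both lists hold short genes, with median spans of 7.37 and 3.24 kb. With the median of genes of like span subtracted their medians were 0.13 and 0.061. Heat shock proteins and chaperones had a median of 0.16 over 12 genes, led by level by Hsp90ab1 (871 and 1113 CPM), Hspa8 (733 and 787 CPM) and Hsp90aa1 (298 and 347 CPM). Glycolysis genes had a median of 0.050 over 14 genes, and cell cycle and DNA replication genes -0.036 over 12, or 0.039 when scaled by the median of the gene ratios.

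**Figure D4:**
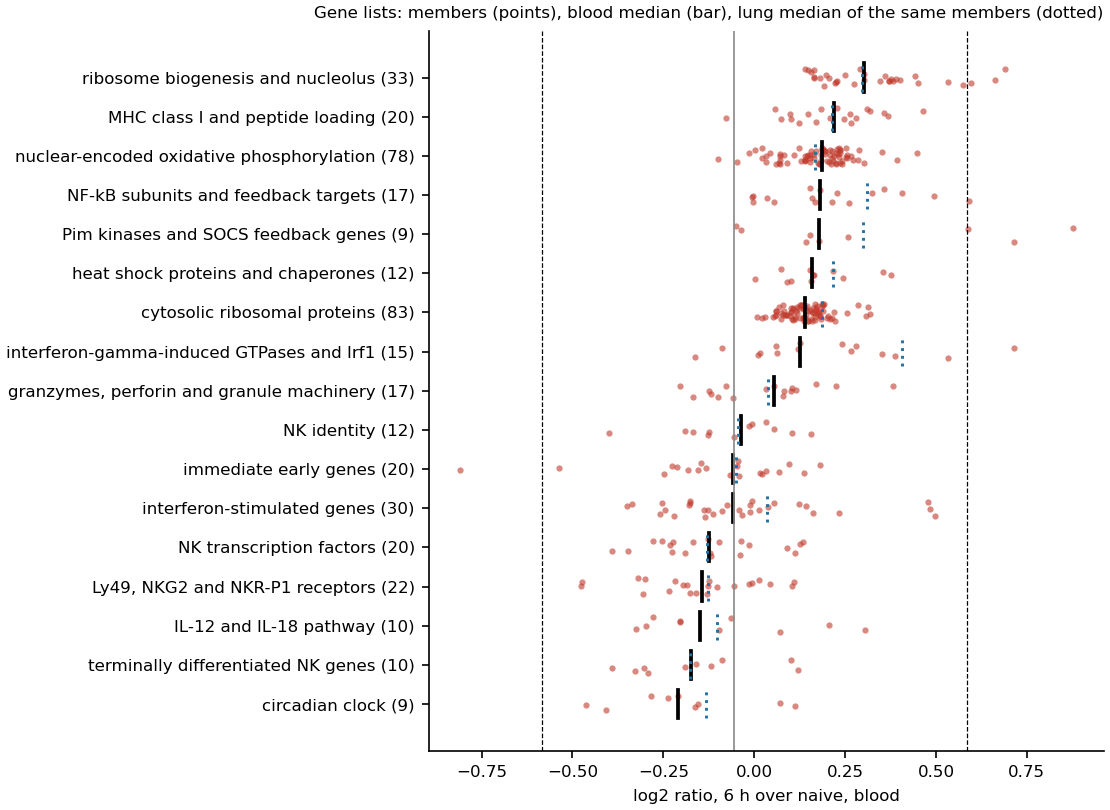
Log2 ratio of 6 h over naive blood NK cells for the members of 17 gene lists that reached 10 CPM (number in brackets). Bars are blood medians, dotted bars are lung medians of the same members, the grey line is the median of all genes at -0.056 and dashed lines mark 1.5-fold. The ribosome biogenesis list lies furthest right, at 0.30, and the circadian clock list furthest left, at -0.21.

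NF-kB subunits and feedback targets had a median of 0.18 over 17 genes, with 12 intervals above 0, beside 16.6% of all genes, and none below it. Nfkb2, which encodes the p100 subunit, was the gene past the fold (18.8 and 28.4 CPM, log2 0.59, 0.43 to 0.76). It fell short of the fold with the tags split at Otsu's threshold and under 4 other alternatives. Nfkbia followed at 0.49, then Gadd45b at 0.41, Relb at 0.36 and Nfkbie at 0.32, while Nfkb1, Rel and Nfkbiz were at 0.037, -0.0050 and -0.0044. In lung the median of the same genes was higher, 0.31.

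The 15 GTPases and regulators induced by interferon-gamma had a median of 0.13, with 9 intervals above 0 and 2 below 0. At a floor of 50 CPM, which fewer of them reached, the median was 0.011. With the median of genes of like span subtracted it was 0.17. Socs1, already counted in the Pim and SOCS list, was the member past the fold, and Gbp6 (0.53), Igtp (0.39) and Irgm2 (0.35) followed. Their lung median was 0.41. Irf1, a transcription factor induced by interferon-gamma, had a blood ratio of 0.13 and a lung ratio of 0.46. The 30 interferon-stimulated genes at the floor, of 48 listed, had a median of -0.059, or 0.015 when scaled by the median of the gene ratios. None of the 30 was past the fold. The interferon-induced Ly6e, past the fold at 0.74, was counted in the list of Ly6 and Thy1 surface proteins and not here. Of the 30 genes, 7 had intervals above 0 and 10 below 0, near the 16.6% and 34.1% of all genes. Isg15 (0.48) and Bst2 (0.48) were among the highest, and the 3 with the highest CPM, Sp100, Ifi203 and Slfn2, had -0.34, -0.18 and -0.012.

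Immediate early genes, which respond to receptor signals within minutes, had a median of -0.057 over 20 genes, or 0.017 when scaled by the median of the gene ratios, with 4 intervals above 0 and 8 below it, also near the shares of all genes. Fos, a subunit of AP-1, was the member past the fold and was lower, at 12.8 CPM in naive and 7.29 CPM in 6 h cells (log2 -0.81, -1.08 to -0.54). A UMI of Fos was found in 192 naive (4.40%) and 114 6 h cells (4.15%), with up to 27 and 15 UMIs in a cell. With cells thinned to the same depth, the shares were 2.35% (1.92 to 2.85) and 1.83% (1.36 to 2.41), with overlapping intervals. The ratio of Fos therefore rests on few cells. The lung ratio of Fos was -0.044. Egr1 was at -0.54 and Jun at -0.21, whereas Junb and Jund were at 0.095 and 0.067.

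Medians of the NK identity and killing genes were near 0. The 12 identity genes had a median of -0.036, or 0.038 when scaled by the median of the gene ratios. Their log2 ratios ran from -0.40 to 0.16, with 4 intervals above 0 and 6 below it. With the median of genes of like span subtracted their median was -0.088, and 10 of the 12 lay below 0. Gzma, the most abundant granzyme gene, had 10882 CPM in naive and 11292 CPM in 6 h cells, Prf1, the perforin gene, 1220 and 1248 CPM, and Nkg7, a granule protein, 2821 and 3032 CPM. Over 17 granule genes the median was 0.053, or -0.014 with the median of genes of like span subtracted, and Gzmb was at 0.22 and Gzmm at 0.38. Adaptors and kinases of activating receptors had a median of 0.00079, which was below 0 under 3 of the alternatives, with Fcer1g at 0.11 and Tyrobp at 0.020.

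The 10 genes of terminally differentiated NK cells had a median of -0.18, with 8 intervals below 0, beside 34.1% of all genes, and none past the fold. The median was -0.10 when scaled by the median of the gene ratios. It was -0.076 in cells thinned to 3000 UMIs with the maturation gates weighted by their naive shares. Those gates are set by a UMI of Cd27 or Itgam, and Itgam is among the 10 genes. Values with the gates weighted are therefore not independent of the maturation genes, here and in the rest of this paragraph. Zeb2, a repressor needed for terminal maturation, went from 1900 to 1450 CPM (log2 -0.39), Tbx21, which encodes T-bet, from 492 to 432 CPM and Itgam from 355 to 290 CPM. Irf8 had the opposite sign, at 0.12. The 22 receptors of the Ly49, NKG2 and NKR-P1 families had a median of -0.14, or -0.071 when scaled by the median of the gene ratios. For 16 of them intervals lay below 0 (34.1% of all genes), among them Klra4 (1431 and 1267 CPM) and Klrk1, which encodes NKG2D (1523 and 1397 CPM). Ly49 genes are near-identical to each other, so their single values are uncertain. The IL-12 and IL-18 pathway had a median of -0.15, or -0.031 with the median of genes of like span subtracted. Il18r1 was at -0.33, Il18rap at -0.30 and Stat4 at -0.28. The 12 genes of less differentiated NK cells had a median of 0.12, led by Ltb, Il7r (log2 0.51) and Cxcr3 (0.22). Il7r was at 0.27 with cells thinned to 3000 UMIs, and at 0.12 with the gates of these thinned cells also weighted by their naive shares. It was at 0.92, past the fold, without cells holding a T cell or ILC1 UMI. Of its 6 h UMIs, 42.7% came from 10 cells. The list median was 0.015 with cells thinned and gates weighted. It was -0.0083 with cells of 1500 to 4000 genes and at most 4% mitochondrial counts.

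Adhesion and trafficking genes had a median of -0.097 over 23 genes, or -0.022 when scaled by the median of the gene ratios. Among them, Itga4, the alpha chain of VLA-4, was at 1713 and 1378 CPM and Itga2, which encodes CD49b, at 711 and 584 CPM. The NK transcription factors had -0.12 over 20 genes, or -0.049 with that scaling. Clock genes had -0.21 over 9, or -0.13 with that scaling and -0.096 once the median of genes of like span was subtracted. Glucocorticoid receptor and target genes had -0.15 over 11, or -0.076 when scaled by the median of the gene ratios. They include Nr3c1, the receptor itself, at 296 and 226 CPM, Txnip at 266 and 235 CPM and Fkbp5 at 115 and 125 CPM. No member of these 4 lists was past the fold. Near 0 were GIMAP GTPases (0.051, or -0.020 with the median of genes of like span subtracted), S100 proteins, galectins and annexins (0.039) and the TGF-beta list (-0.036, or 0.038 when scaled by the median of the gene ratios). The BCL2 family had 0.11, the mitochondrially encoded genes 0.079 (-0.018 with the median of genes of like span subtracted) and the unfolded protein response 0.16. Checkpoints and costimulatory receptors had 0.066, or -0.013 in thinned cells with the maturation gates weighted by their naive shares.

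Between 10 and 50 CPM, 18 further genes were higher and 18 lower past the fold, and those outside the lists are named after their values were seen. The higher ones included the peptide transporter Slc15a2 (7.14 and 16.0 CPM, log2 1.17, 0.92 to 1.42), Pdcd1lg2, which encodes PD-L2 (6.91 and 14.2 CPM, 1.04), the inhibitory receptor Lilrb4a (5.67 and 11.6 CPM, 1.04), the adhesion molecule Dscam (10.3 and 20.7 CPM, 1.01) and the protease Ctss (23.3 and 37.4 CPM, 0.69). Dscam had a lung ratio of 1.88 and Slc15a2 one of 0.42. A UMI of Dscam was found in 88 naive and 133 6 h blood cells. Of its UMIs, 40.5% in naive and 28.9% in 6 h blood cells came from 10 cells. Grik1, a glutamate receptor subunit, was found in 4.33% of 6 h cells thinned to 3000 UMIs, below the 9.59% that free RNA could give, and is read as background. Ctss fell short of the fold under 3 alternatives, at 0.52 with cells of 1500 to 4000 genes and at most 4% mitochondrial counts, 0.58 without the 5% of cells with the most UMIs and 0.56 without cells holding a myeloid, neutrophil or B cell UMI. For Plac8, 55.5% of the 6 h UMIs came from 10 cells. Its log2 ratio was 0.66, and it was -0.11 without cells holding a UMI of Lyz2, S100a8, S100a9, Csf1r, Cd79a or Ms4a1. The lower genes included the RNA-binding protein Cpeb3 (15.3 and 8.70 CPM, log2 -0.82), the adhesion molecule Mcam (29.7 and 18.8 CPM, -0.66), the cholesterol transporter Abca1 (33.2 and 22.1 CPM, -0.59), the mitophagy kinase Pink1 (29.2 and 19.3 CPM, -0.59) and the MAX partner Mxi1 (20.8 and 13.5 CPM, -0.63). Abca1 fell short of the fold under 8 alternatives (-0.56 to -0.42), Pink1 under 6 (-0.58 to -0.52), Mxi1 under 4 (-0.55 to -0.50) and Mcam under 1 (-0.58).

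The leading genes were found in a larger share of cells at 6 h. To compare shares at 1 depth, each cell was thinned to 3000 UMIs, which left out 75 naive and 20 6 h cells. Serpina3g then had a UMI in 15.9% (14.9 to 17.1) of naive and 27.3% (25.7 to 29.0) of 6 h cells, against 28.6% and 48.2% before thinning, and free RNA could give at most 0.847% and 2.05%. Ly6e was found in 33.9% and 49.9% of thinned cells, Xcl1 in 28.1% and 38.7%, Tnfrsf9 in 17.8% and 28.3%, Pim2 in 7.99% and 12.3% and Ltb in 6.13% and 10.3%. Free RNA could give Xcl1 a UMI in at most 5.14% of naive and 10.2% of 6 h cells. The mean number of UMIs per cell with a UMI of Xcl1 was 4.49 in naive and 5.50 in 6 h cells, while for Tnfrsf9 it was 2.10 and 1.90. Mxd4 went from 42.5% to 30.9%, Angpt1 from 26.7% to 21.8% and Ncald from 24.4% to 18.5%.

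**Figure D5:**
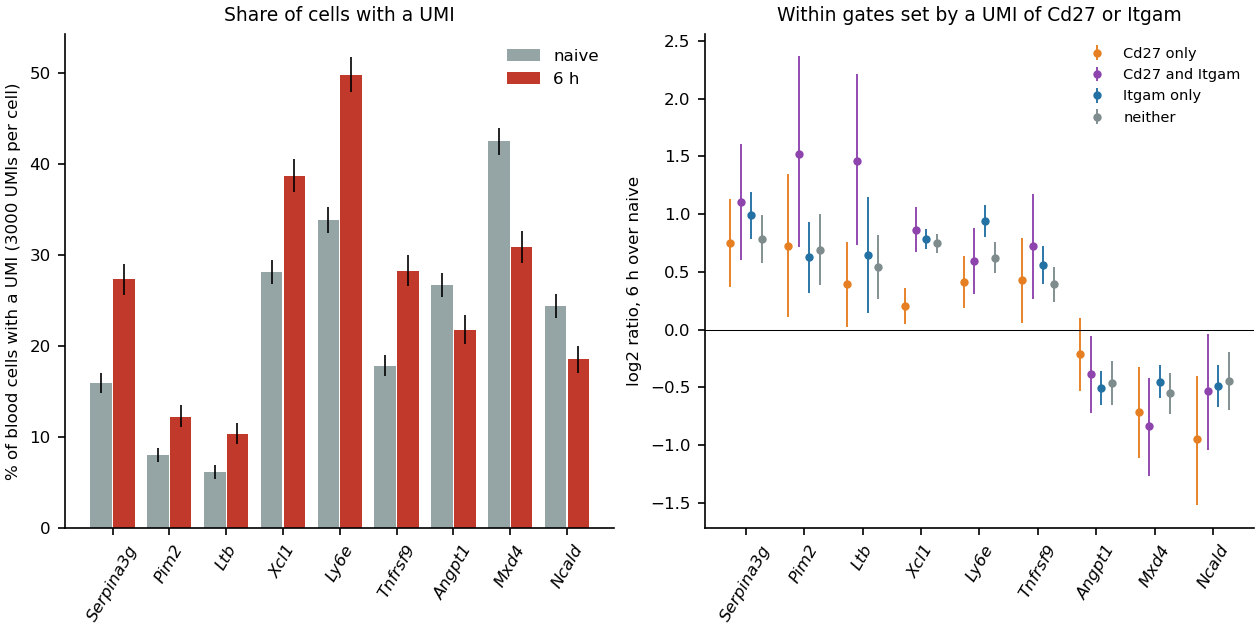
Left, share of blood NK cells with at least 1 UMI after thinning to 3000 UMIs per cell, with exact binomial intervals, for naive (grey) and 6 h (red) cells. Right, log2 ratio of 6 h over naive within cells with a UMI of Cd27, Itgam, both or neither, with counting intervals. Serpina3g, Pim2, Ltb, Xcl1, Ly6e and Tnfrsf9 lie above 0 in all 4 gates, and the Angpt1 interval in the Cd27 gate reaches above 0.

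The Itgam gate held a smaller share of cells at 6 h. At 3000 UMIs per cell, cells with a UMI of Itgam and none of Cd27 made up 53.3% (51.8 to 54.8) of naive and 47.0% (45.1 to 48.9) of 6 h cells. Cells with a UMI of neither were 32.3% (30.9 to 33.8) and 37.1% (35.3 to 39.0), cells with Cd27 alone 7.41% (6.64 to 8.23) and 8.95% (7.91 to 10.1), and cells with both 6.97% and 6.90%. A gate is a detection class and not a cell type, and the gates rest on Itgam itself, whose level was 355 CPM in naive and 290 CPM in 6 h cells.

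Within each gate the ratios of the 5 leading genes were above 0. Serpina3g had log2 ratios of 0.75 in the Cd27 gate, 1.10 with both markers, 0.99 in the Itgam gate and 0.79 with neither. Ly6e had 0.41, 0.59, 0.94 and 0.63 in the same order, and Pim2 0.73, 1.52, 0.63 and 0.69. Xcl1 had 0.20 (0.049 to 0.36) in the Cd27 gate against 0.87, 0.79 (0.70 to 0.87) and 0.75 (0.67 to 0.83) in the others. Ltb had 0.39, 1.46, 0.65 and 0.54. With thinned cells and gates weighted by naive shares, the summed ratio of Serpina3g, Pim2, Ltb, Xcl1 and Ly6e still passed the fold. With both thinning and weighting, 37 of 154 genes examined moved outside their counting interval, and with thinning alone 29 did.

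The genes that follow had the largest differences between the 2 tissues at 50 CPM or more in both, and were picked after their values were seen. Icam1, an adhesion ligand, had a log2 ratio of 0.18 in blood and 0.58 in lung, a difference of -0.40 (-0.51 to -0.29), and Traf1, a signalling adaptor, 0.26 and 0.61, a difference of -0.35 (-0.46 to -0.24). Acss2, an acetyl-CoA synthetase, was at -0.43 in blood and -0.017 in lung. Ern1, a sensor of unfolded proteins, was at -0.21 in blood and 0.21 in lung. In the other direction, Bzw2 was at 0.23 and -0.17, Slc7a1, an arginine transporter, at 0.24 and -0.049, and Ppig at -0.025 and -0.35. Lung and blood cells come from the same libraries, so the 2 ratios are not independent, and each interval covers counting error only.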

How the data were processed

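The authors deposited UMI counts per gene and hashtag for every barcode, without normalization, made with Cell Ranger (7.0.1 per the labels, 7.1.0 per the file headers) on GRCm38.p6 with GENCODE M23. Whether intronic reads were counted is not given in the sources used here. The lists held 1743618 naive and 1796296 6 h barcodes, more than called cells. The methods name lung and blood in the same order as B0304 and B0306, so B0306 was taken as blood. Cells with both tags (343 naive, 158 at 6 h) were left out. Doublets within blood stayed in (an estimated 4.67% and 1.69%).

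Counts were summed over cells and scaled to CPM. Alternatives to the totals, the tag and cell filters, the CPM floor and the depth were run. Ratios have exact Clopper-Pearson intervals conditional on the 2 counts, levels exact Poisson intervals and shares exact binomial intervals, at 95%. A gene at 0 was set to 3 counts. Free RNA was limited to 3.42% (naive) and 4.46% (6 h) of counts, from barcodes of at most 100 counts. Gene positions were taken from the GENCODE M21 annotation (GRCm38), in which 25512 of the 25906 genes matched, and promoters from RefSeq (GRCm38.p6). Named genes are the 15 largest and 15 smallest ratios at 50 CPM or more, passing over gene models, pseudogenes, ribosomal protein and mt- genes (0 were passed over), and, in each list, members past 1.5-fold or else the 3 with the highest CPM, with others named after their values were seen. Members and lists were chosen with earlier results of these data known. Some named genes are not reported here. The ratio and its interval were tested on simulated data that hold counting error only. That test does not bear on the spread between cells, mice or libraries. Python 3.11.15, numpy 2.4.6, pandas 2.3.3 and scipy 1.17.1 were used.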

Additional observations from a re-analysis of the deposited data

Results flagged for a closer look

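In 6 genes the blood and lung cells of the same libraries had log2 ratios of 6 h over naive of opposite sign, with counting intervals that lay apart from 0 in both tissues. They are among 154 genes examined, and Ern1, Rnf213, Aff1 and Bzw2 had been picked for their difference between the tissues. Over all 7810 genes that reached 10 CPM in both tissues, 32 (0.41%) had such ratios. With 1 library per condition, the difference between tissues was not tested. Ern1 was at -0.21 in blood and 0.21 in lung, and Rnf213, an interferon-induced ubiquitin ligase, at -0.16 and 0.23. Aff1, a transcription elongation factor, was at -0.21 and 0.12. Bzw2 had 0.23 in blood and -0.17 in lung. Irf8, a transcription factor, had 0.12 in blood and -0.038 in lung, and Trbc1, a T cell receptor constant gene, had 0.062 and -0.11. None of the 6 was past 1.5-fold in either tissue.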

How the results depend on the processing

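The 23 higher and 19 lower genes became 39 and 7 when scaled by the median of the gene ratios, 38 and 34 with cells thinned to 3000 UMIs, 5 and 1 at a floor of 50 CPM, and 114 and 119 of 10576 genes at a floor of 2 CPM. Among alternatives chosen after seeing the data, they became 24 and 10 with the median of genes of like span subtracted. They became 39 and 32 with the gates weighted by their naive shares in cells thinned to 3000 UMIs, beside 38 and 34 with that thinning alone. Under the other 9 alternatives with cells or totals changed, both counts stayed within 1.5 times. The log2 ratio of Lyz2 turned to -1.20 and that of Plac8 to -0.82 with cells of 1500 to 4000 genes and at most 4% mitochondrial counts, and to -1.40 and -0.17 without the 5% of cells with the most UMIs. Without cells holding a myeloid, neutrophil or B cell UMI (chosen after seeing the data), Plac8 turned to -0.11. The ratios of Lyz2 and Plac8 rest on few cells. That last setting leaves out every cell with a UMI of S100a9, so it cannot show a direction for this gene. The value of 0.45 that it gave for S100a9 comes only from the count set for genes without counts. Serpina3g stayed between 0.82 and 0.95, Pim2 between 0.72 and 0.95, Ltb between 0.60 and 0.87, Xcl1 between 0.65 and 0.84 and Ly6e between 0.64 and 0.81. No paired analysis was possible because each group is 1 library and no replicate numbers exist, and no replicate could be left out.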
